A study of Homo sapiens with 24 samples.

Results

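The replication machinery analysed here is a set of 34 genes whose products load, activate and feed the enzymes that copy DNA. They are a list of named genes, drawn up with earlier results of these data known, and each was read from the core array feature that the platform annotation assigns to that gene alone. All 34 were measured, among 14232 genes in all. The cells were MHH-CALL4 and MUTZ-5, both established human lines of acute lymphoblastic leukemia. Each line was grown in the same medium and received DMSO, the control, or 500 nM JQ1 for 8 hours. JQ1 is a BET inhibitor, a compound that blocks the binding of bromodomains to acetylated histones. RNA of 3 samples per group was hybridised, 1 array per sample, which makes 4 groups and 12 arrays. Nothing in the labels says that the 3 samples came from separate cultures, so every p-value reflects only how far these samples scatter, possibly for technical reasons, and each line stands for itself only. Values are log2 levels after RMA, the authors' method of background removal, normalization by quantiles and summary over probes. The median gene lay between 8.46 and 8.57 on every array. Of 10 markers of precursor B cells 9 were measured, with group means from 9.22 to 13.3, none below the median of all genes (8.51). Of 33 measured markers of T and NK, myeloid, erythroid and platelet, and stromal cells 27 stayed below it in every group. The exceptions were NKG7 (highest group mean 10.5), ELANE (8.67), KLF1 and GP9 (up to 8.90), and PDGFRB and PECAM1 (up to 12.6).

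A cell copies its genome from many origins. In G1 the origin recognition complex, with CDC6 and CDT1, loads rings of the MCM helicase onto DNA. In S phase CDC45 and the GINS complex join each ring and turn it into a moving helicase, behind which DNA polymerases, the clamp loader RFC, the single-strand binder RPA and DNA ligase build the new strands. Ribonucleotide reductase, thymidylate synthase and thymidine kinase supply the nucleotides. Most of these genes are transcribed around the entry into S phase under the control of E2F factors. MYC, which JQ1 is known to lower in blood cancers, is a further activator of several of them. On these arrays the log2 level of MYC fell by 2.05 (SE 0.068, limma adjusted p = 8.56e-10) in MHH-CALL4. The fall in MUTZ-5 was smaller, at -1.32 (SE 0.068, adjusted p = 5.33e-08).

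The comparison of JQ1 with DMSO asks how BET inhibition changed this machinery after 8 hours. In MHH-CALL4 13 of 34 members fell, 1 rose and 20 did not pass (limma, p adjusted by Benjamini-Hochberg over all genes, threshold 0.05). Of all genes tested 28.5% were called there, 17.5% lower and 11.0% higher, against 41.2% of the members. The 13 were MCM2, POLE2, MCM5, GINS3, GINS1, MCM6, TYMS, MCM3, CHAF1A, MCM10, PRIM1, RFC3 and GINS2. The gene that rose was TK1. In MUTZ-5 5 fell (POLE2, MCM2, GINS1, MCM5 and GINS3), 4 rose (GINS4, TK1, POLE and CHAF1B) and 25 did not pass. Of all genes 22.0% were called in MUTZ-5, 13.0% lower and 9.06% higher, against 26.5% of the members. All changes were small. The largest, that of MCM2 in MHH-CALL4, was 1.60-fold. The median log2 difference of the 34 was -0.16 in the first line and -0.036 in the second, against 0.0065 and 0.0084 for all genes. After cyclic loess the first was -0.082, and without MUTZ-5 DMSO replicate 3 the second turned to 0.031. The second was also positive after each array was centred on its median. With that centring 20 of 34 members had a positive difference in MUTZ-5, against 16 in the main fit.

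All 34 members had a group mean at or above the median level, where more genes were called. When only the 7704 genes at that level, called the better expressed genes below, were tested, 46.9% of them passed in MHH-CALL4, with 16 of the 34 members. In MUTZ-5 the share was 42.9%, with 12 members. The values of the groups did not overlap for 21 members in MHH-CALL4 and 13 in MUTZ-5, against 43.7% and 32.6% of all genes. By direction, 31.8% of the better expressed genes were lower and 15.1% higher in MHH-CALL4, against 14 and 2 members. In MUTZ-5 24.7% were lower and 18.2% higher, against 6 and 6 members. Most members lay well above the median level, and no comparison matched on level was made. The MHH-CALL4 count of decreases dropped when 1 of 2 arrays was left out. Without MHH-CALL4 DMSO replicate 2, 7 members fell, and without MHH-CALL4 JQ1 replicate 2, 6 did. Of all genes 13.6% and 14.4% were called lower in these fits, against 17.5% with all arrays. The MUTZ-5 count of increases was 2 without MUTZ-5 DMSO replicate 2, without JQ1 replicate 1 or without JQ1 replicate 2, and 7 after each array was centred on its median. Of all genes 6.32%, 6.66% and 6.52% were called higher with these arrays left out, in that order. After centring 12.4% were, against 9.06% in the main fit. That centring took the decreases from 61.5% to 51.5% of all genes called in MHH-CALL4, where the members were then 2 higher and 10 lower. In MUTZ-5 it took them from 58.9% to 48.5%, and 7 members were higher and 5 lower. In bulk RNA fewer cells in S phase and less of a transcript per cell cannot be told apart.

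**Figure D1:**
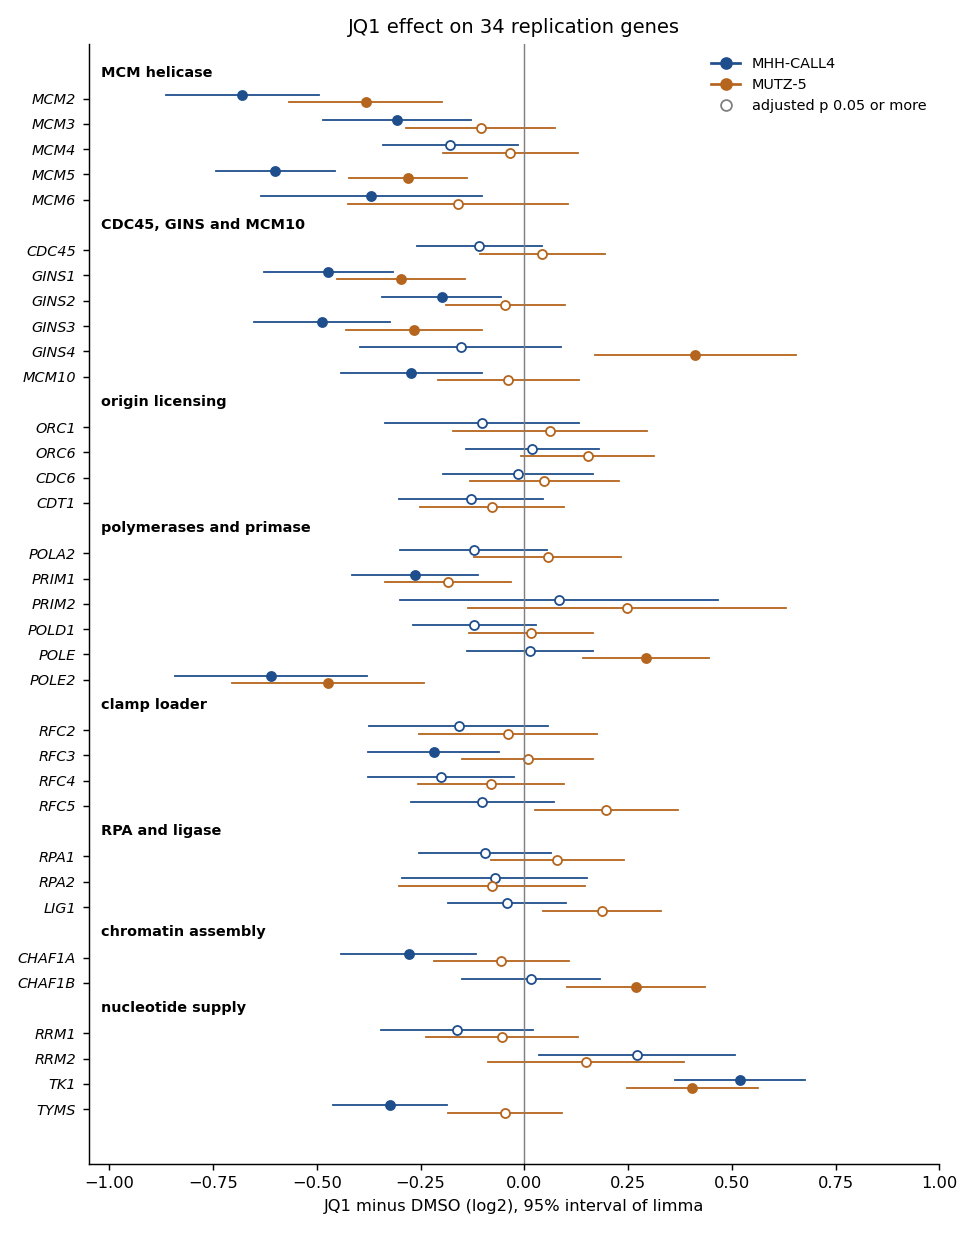
JQ1 minus DMSO on the log2 scale (horizontal axis) for the 34 replication genes, grouped by role, in MHH-CALL4 (blue) and MUTZ-5 (brown), with lines for the 95% interval of limma; filled points passed the adjusted p of 0.05. MCM2, MCM5, GINS1, GINS3 and POLE2 lie left of 0 with filled points in both lines, TK1 lies right of 0 in both, and the 4 origin licensing genes have open points only.

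The DNA around the start sites of some members is shown as a description. RefSeq promoters (GRCh38.p14, 250 bases before to 50 after the start site, written 5′ to 3′ in the gene's direction) were matched by symbol for 30 of the 34 members; MCM4, MCM5, GINS4 and RPA2 had no entry. They are printed for the 3 of these with the largest fall in MHH-CALL4 (MCM2, POLE2, GINS3), the 2 with the largest rise in either line (TK1, POLE) and the one with the smallest adjusted p for a line difference (TYMS). Capitals mark matches to an E2F motif (TTTCCCGC, TTTCGCGC, TTTGCCGC or TTTGGCGC), to the E-box CACGTG that MYC and MAX bind, to the CCAAT box, or to the CHR element of late cell cycle genes (spelled TTTGAA and also TTCGAA), on either strand. MCM2 lies at chr3:127598161-127598460 (plus strand), POLE2 at chr14:49688165-49688464 (minus), GINS3 at chr16:58392221-58392520 (plus), TK1 at chr17:78187155-78187454 (minus), POLE at chr12:132687293-132687592 (minus) and TYMS at chr18:657403-657702 (plus).
MCM2: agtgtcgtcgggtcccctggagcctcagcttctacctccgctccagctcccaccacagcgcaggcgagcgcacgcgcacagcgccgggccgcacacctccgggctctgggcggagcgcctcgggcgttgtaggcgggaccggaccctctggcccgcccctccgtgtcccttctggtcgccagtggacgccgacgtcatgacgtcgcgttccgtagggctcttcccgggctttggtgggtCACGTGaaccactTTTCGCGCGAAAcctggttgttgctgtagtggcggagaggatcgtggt
POLE2: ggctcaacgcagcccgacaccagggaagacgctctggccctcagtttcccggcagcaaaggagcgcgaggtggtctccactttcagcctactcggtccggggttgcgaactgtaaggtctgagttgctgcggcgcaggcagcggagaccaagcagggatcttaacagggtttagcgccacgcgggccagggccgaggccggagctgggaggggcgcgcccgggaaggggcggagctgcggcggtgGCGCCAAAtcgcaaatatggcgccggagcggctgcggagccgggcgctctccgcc
GINS3: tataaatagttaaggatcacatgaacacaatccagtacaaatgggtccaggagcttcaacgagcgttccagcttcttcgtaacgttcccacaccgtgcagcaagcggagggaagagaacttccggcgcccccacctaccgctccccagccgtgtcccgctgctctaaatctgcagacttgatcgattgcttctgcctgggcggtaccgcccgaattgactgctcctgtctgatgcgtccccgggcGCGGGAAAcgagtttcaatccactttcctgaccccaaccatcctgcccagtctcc
TK1: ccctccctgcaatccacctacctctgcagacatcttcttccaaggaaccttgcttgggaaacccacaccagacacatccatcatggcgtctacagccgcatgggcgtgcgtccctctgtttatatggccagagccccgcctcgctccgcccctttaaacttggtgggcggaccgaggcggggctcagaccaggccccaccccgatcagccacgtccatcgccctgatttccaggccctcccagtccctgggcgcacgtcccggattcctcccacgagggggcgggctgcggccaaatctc
POLE: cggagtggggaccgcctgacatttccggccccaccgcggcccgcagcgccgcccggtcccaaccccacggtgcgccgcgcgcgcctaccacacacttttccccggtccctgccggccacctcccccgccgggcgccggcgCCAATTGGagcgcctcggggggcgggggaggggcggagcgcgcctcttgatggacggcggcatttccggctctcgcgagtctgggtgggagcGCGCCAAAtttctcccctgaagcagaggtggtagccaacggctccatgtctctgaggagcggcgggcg
TYMS: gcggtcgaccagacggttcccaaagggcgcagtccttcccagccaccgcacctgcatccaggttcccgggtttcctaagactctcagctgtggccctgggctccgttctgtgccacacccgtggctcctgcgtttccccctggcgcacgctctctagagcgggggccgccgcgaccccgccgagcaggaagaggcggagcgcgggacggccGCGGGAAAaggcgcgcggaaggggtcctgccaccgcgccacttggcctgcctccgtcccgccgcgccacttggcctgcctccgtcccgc

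In MCM2 an E-box began at position -11 from the start site, and 2 overlapping E2F matches, 1 on each strand, began at 3 and 7. POLE2 and GINS3 each held 1 E2F match beginning at -5, TYMS 1 at -39, and POLE 1 at -18 with 2 overlapping CCAAT boxes at -110 and -107. The TK1 window held none of the searched letters, which says only that they are not in this window. An E2F match was found in 14 of the 30 member promoters (46.7%), against 3.33% of all 27305 promoters of this length and 4.49% of the 11386 that belong to genes tested here. It was present in 9 of the 12 matched members that fell in MHH-CALL4 and in 5 of the 17 that did not pass. The 9 were MCM2, POLE2, GINS3, GINS1, MCM6, TYMS, MCM3, RFC3 and GINS2, and the 5 were CDT1, POLA2, LIG1, CDC6 and POLE. The E-box was found in 3 member promoters (10%, against 8.99% of tested genes), those of MCM2, CHAF1A and RPA1. CCAAT boxes were found in 16 (53.3%, against 36.5%) and CHR elements in 2 (6.67%, against 13.1%). The median GC content was 64.2% in member promoters and 63.3% in those of tested genes, and the median ratio of observed to expected CpG, a base pair step that each searched E2F motif contains, was 0.94 and 0.78. These matches are a description of letters, and E2F binding was not measured. Whether a match goes with the JQ1 response was not tested.

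**Figure D2:**
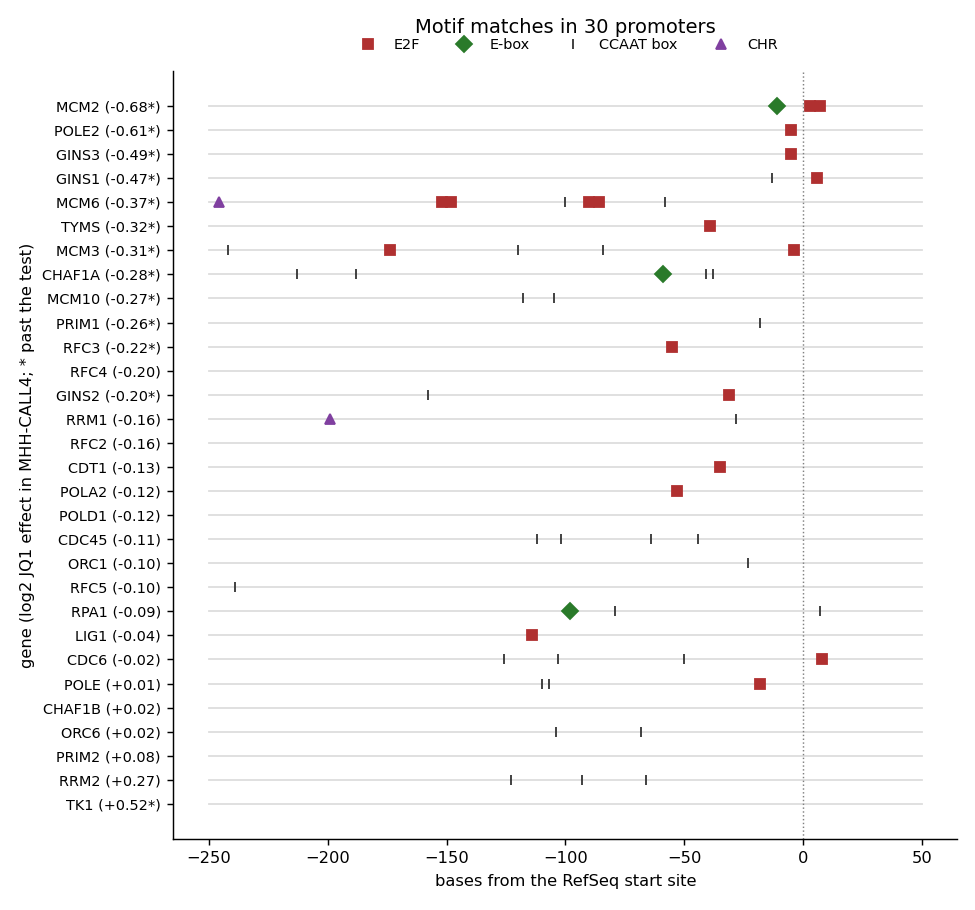
Positions of motif matches (horizontal axis, bases from the RefSeq start site) in the promoters of the 30 matched members, ordered from the largest fall to the largest rise in MHH-CALL4, with the log2 effect in brackets and a star where it passed the test. Red squares mark E2F, green diamonds the E-box, black ticks the CCAAT box and purple triangles CHR; 9 of the 12 starred genes that fell carry a red square, and TK1 at the foot carries no mark.

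The MCM helicase unwinds the DNA ahead of the polymerases. All 5 MCM members, MCM2 to MCM6, had a negative difference in both lines, and in MHH-CALL4 4 of 5 fell, with a median of -0.37. MCM7 was not among the 14232 genes measured. MCM2 was 10.99, 10.90 and 10.89 under DMSO and 10.32, 10.13 and 10.29 under JQ1 in MHH-CALL4. In MUTZ-5 it was 11.40, 11.18 and 11.48, and then 11.00, 10.94 and 10.97. Every JQ1 value lay below every DMSO value of its line, and MUTZ-5 under JQ1 sat at about the level of untreated MHH-CALL4. The change was -0.68 (SE 0.086, limma adjusted p = 5.41e-05) in MHH-CALL4 and -0.38 (SE 0.086, adjusted p = 0.0053) in MUTZ-5.

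MCM5 was 11.54, 11.61 and 11.59 under DMSO and 11.00, 10.94 and 11.00 under JQ1 in MHH-CALL4, a fall of 1.52-fold (-0.60, SE 0.066, limma adjusted p = 1.67e-05). In MUTZ-5 the values went from 12.07, 12.01 and 12.15 to 11.77, 11.77 and 11.84 (-0.28, SE 0.066, adjusted p = 0.0073). The groups did not overlap in either line. MCM6 was more variable. In MHH-CALL4 it was 11.04, 10.93 and 10.90 under DMSO and 10.82, 10.60 and 10.34 under JQ1, so that JQ1 replicate 1 lay close to the controls (-0.37, SE 0.12, adjusted p = 0.0389). Its call was lost in 7 of 20 alternative analyses, in which the adjusted p reached 0.151. They include leaving out MHH-CALL4 DMSO replicate 1, 2 or 3, JQ1 replicate 2 or 3, or MUTZ-5 JQ1 replicate 2. MCM3 fell by 0.31 (adjusted p = 0.0137; up to 0.0595, and lost without MHH-CALL4 DMSO replicate 1 or JQ1 replicate 2). MCM4 differed by -0.18 and did not pass (adjusted p = 0.0962; 0.0444 with the trend and robust settings of eBayes). In MUTZ-5 MCM3, MCM4 and MCM6 differed by -0.11, -0.034 and -0.16, and none passed.

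**Figure D3:**
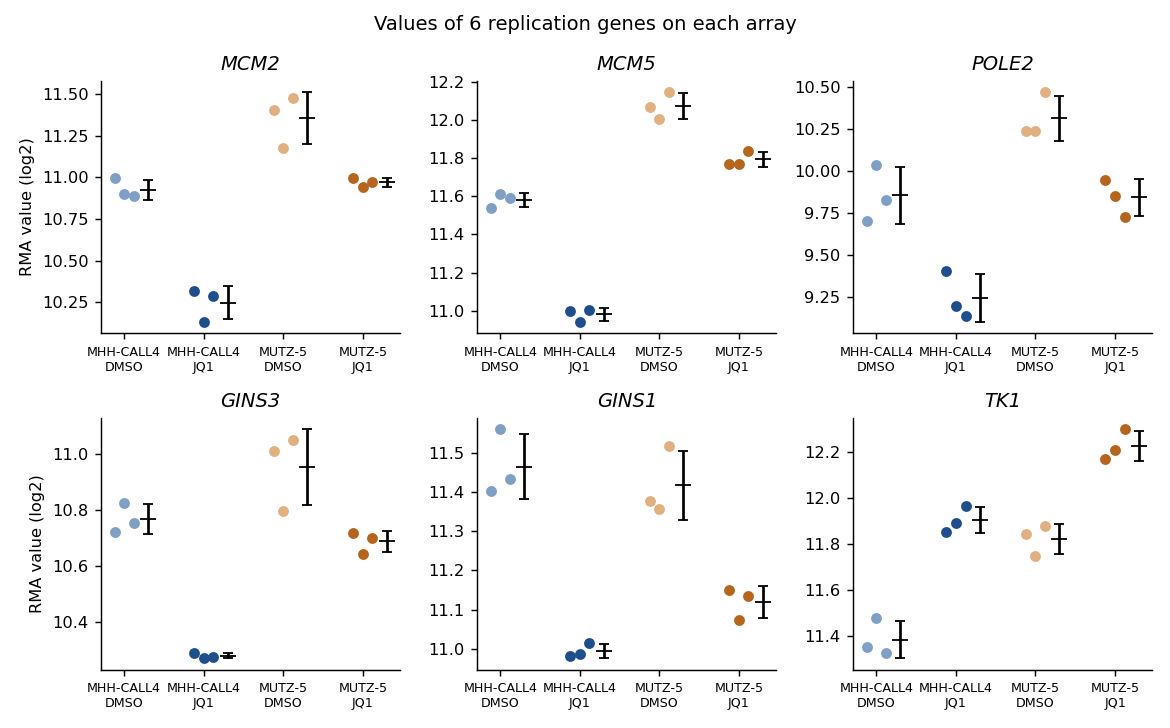
RMA log2 values (vertical axis, a separate scale for each gene that does not start at 0) of MCM2, MCM5, POLE2, GINS3, GINS1 and TK1 on each of the 12 arrays, 3 points per group, with the mean and SD beside them. In every panel the JQ1 points of a line lie clear of its DMSO points, below them for the first 5 genes and above them for TK1.

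Of the factors that turn the loaded helicase on, 4 of 6 fell in MHH-CALL4 and none rose, with a median of -0.24. GINS1 and GINS3, subunits of the GINS complex, fell in both lines. GINS1 was 11.40, 11.56 and 11.43 under DMSO and 10.98, 10.99 and 11.01 under JQ1 in MHH-CALL4 (-0.47, SE 0.072, limma adjusted p = 0.000253). In MUTZ-5 it was 11.38, 11.36 and 11.52, and then 11.15, 11.07 and 11.14 (-0.30, SE 0.072, adjusted p = 0.00838). GINS3 was 10.72, 10.82 and 10.75 under DMSO in MHH-CALL4 and 10.29, 10.27 and 10.28 under JQ1, with a spread between JQ1 arrays of only 0.0095 (SD, n = 3). It fell by 0.49 there (SE 0.076, adjusted p = 0.000308). In MUTZ-5 it fell by 0.26 (SE 0.076, adjusted p = 0.0222; up to 0.0954, and lost with only the groups compared in the fit and without MUTZ-5 DMSO replicate 1 or 3 or JQ1 replicate 2). The groups of both genes were clear of each other in both lines.

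GINS4 and GINS2 are the other subunits of the complex. GINS4 in MUTZ-5 was 9.37, 9.43 and 9.80 under DMSO and 10.03, 9.99 and 9.81 under JQ1, a rise of 0.41 (SE 0.11, limma adjusted p = 0.017). Its groups were parted by a narrow gap only, because MUTZ-5 DMSO replicate 3 lay at the level of JQ1 replicate 3. The call was lost without MUTZ-5 DMSO replicate 1 or 2 or JQ1 replicate 1 or 2 (adjusted p up to 0.0853), and without DMSO replicate 3 the rise was 0.55. In MHH-CALL4 GINS4 differed by -0.15 and did not pass. GINS2 fell by 0.20 in MHH-CALL4 (adjusted p = 0.0396), a call lost in 12 of 20 alternatives (adjusted p up to 0.133), among them leaving out any 1 MHH-CALL4 array except DMSO replicate 1, MUTZ-5 DMSO replicate 1, or MUTZ-5 JQ1 replicate 1 or 2. MCM10, which helps to start the fork, fell by 0.27 there (adjusted p = 0.0197, and up to 0.0894 without MHH-CALL4 DMSO replicate 2, JQ1 replicate 1 or JQ1 replicate 2). CDC45 did not pass in either line, with differences of -0.11 and 0.044.

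The 4 members that mark and license origins showed no called change. ORC1 and ORC6, subunits of the origin recognition complex, differed by -0.10 and 0.019 in MHH-CALL4 and by 0.062 and 0.15 in MUTZ-5. CDC6, the loader that binds the complex, differed by -0.016 and 0.049. CDT1, which brings the helicase ring, differed by -0.13 and -0.078. Their 95% intervals in MHH-CALL4 ran from -0.34 to 0.13 for ORC1, from -0.14 to 0.18 for ORC6, from -0.20 to 0.16 for CDC6 and from -0.30 to 0.045 for CDT1. A fall as large as that of MCM2 or MCM5 lies outside all 4 intervals. In MUTZ-5 ORC6 passed after median centring (adjusted p = 0.0455) and after cyclic loess (0.0427). ORC2, ORC3, ORC4 and ORC5, subunits of the same complex that are not members, were named after their values were seen. In MHH-CALL4 ORC2 was called lower (-0.38, limma adjusted p = 0.0409). ORC5 (-0.29, adjusted p = 0.0784), ORC4 (0.33, 0.111) and ORC3 (0.054, 0.770) did not pass there. In MUTZ-5 ORC2, ORC3, ORC4 and ORC5 differed by -0.18, -0.026, 0.33 and -0.074, and none passed.

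Of the 6 polymerase and primase genes only POLE2 fell in both lines. POLE2, the accessory subunit of the leading strand polymerase, was 9.70, 10.04 and 9.83 under DMSO and 9.41, 9.20 and 9.13 under JQ1 in MHH-CALL4. It was 10.24, 10.24 and 10.47 under DMSO and 9.95, 9.85 and 9.73 under JQ1 in MUTZ-5. It fell by 0.61 (SE 0.11, limma adjusted p = 0.00077) and by 0.47 (SE 0.11, adjusted p = 0.00564), with no overlap in either line. POLE, the catalytic subunit of the same enzyme, did not fall. In MUTZ-5 it was 11.14, 11.03 and 11.22 under DMSO and 11.40, 11.41 and 11.46 under JQ1, a rise of 0.29 (SE 0.070, adjusted p = 0.00788). In MHH-CALL4 the POLE groups overlapped, with a difference of 0.013 and a 95% interval from -0.14 to 0.16.

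PRIM1, the catalytic subunit of primase, fell by 0.26 in MHH-CALL4 (limma adjusted p = 0.0134; up to 0.0586, and lost with extended summaries, without MHH-CALL4 DMSO replicate 2 and without JQ1 replicate 2). In MUTZ-5 its difference of -0.18 did not pass (adjusted p = 0.0852), although its groups did not overlap, and it passed after cyclic loess (0.0387) and within the better expressed genes (0.0391). PRIM2, the large primase subunit, was the least precise member, with SDs up to 0.35 within a group, and passed in neither line. POLA2, of the polymerase that extends primers, and POLD1, the catalytic subunit of the lagging strand polymerase, did not pass in either line, with differences between -0.12 and 0.056.

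The clamp loader genes all had negative differences in MHH-CALL4, with a median of -0.18, and 1 of 4 passed. RFC3 fell by 0.22 in MHH-CALL4 (limma adjusted p = 0.0397), a call lost in 13 of 20 alternatives (adjusted p up to 0.163), among them the same left-out arrays as for GINS2. RFC2, RFC4 and RFC5 had differences of -0.16, -0.20 and -0.10 there and did not pass, although RFC4 passed within the better expressed genes (0.0464) and with the trend and robust settings (0.0377). RFC5 had differences of opposite sign in the lines. It was 10.81, 11.03 and 10.83 under DMSO and 10.79, 10.79 and 10.78 under JQ1 in MHH-CALL4, and 10.74, 10.66 and 10.87 and then 10.96, 10.98 and 10.92 in MUTZ-5. Neither difference passed (adjusted p = 0.39 and 0.103), but that in MUTZ-5 passed after median centring (0.0238), after cyclic loess (0.0192) and within the better expressed genes (0.0497). LIG1, the ligase that joins lagging strand fragments, differed by -0.041 and 0.19, with adjusted p of 0.697 and 0.0587, and passed in MUTZ-5 after median centring (0.0105), within the better expressed genes (0.0252) and with the trend and robust settings (0.0406). RPA1 and RPA2 stayed between -0.095 and 0.080 in both lines.

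CHAF1A and CHAF1B are subunits of the assembly factor that places histones on new DNA. CHAF1A fell by 0.28 in MHH-CALL4 (limma adjusted p = 0.0141; up to 0.0614, and lost without MHH-CALL4 DMSO replicate 2 or JQ1 replicate 2) and differed by -0.055 in MUTZ-5, where it did not pass. CHAF1B in MUTZ-5 was 10.42, 10.24 and 10.42 under DMSO and 10.62, 10.63 and 10.63 under JQ1. All JQ1 values were higher than all DMSO values, a rise of 0.27 (SE 0.077, adjusted p = 0.0223; up to 0.0805, and lost with extended summaries, with only the groups compared in the fit, and without MUTZ-5 DMSO replicate 2 or any 1 MUTZ-5 JQ1 array). In MHH-CALL4 CHAF1B differed by 0.016.

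The nucleotide supply genes moved each way. TK1, the thymidine kinase of the salvage pathway, was 11.35, 11.48 and 11.32 under DMSO and 11.85, 11.89 and 11.96 under JQ1 in MHH-CALL4. In MUTZ-5 it was 11.84, 11.75 and 11.88, and then 12.17, 12.21 and 12.30. It rose 1.43-fold (0.52, SE 0.073, limma adjusted p = 0.00013) and 1.32-fold (0.41, SE 0.073, adjusted p = 0.00116). All JQ1 values lay above all DMSO values in each line, and TK1 was the one member called higher in both. TYMS, which makes thymidylate by the other route, was 12.51, 12.63 and 12.55 under DMSO and 12.27, 12.20 and 12.24 under JQ1 in MHH-CALL4, so that it fell by 0.32 (SE 0.064, adjusted p = 0.00178). In MUTZ-5 it differed by -0.045 (adjusted p = 0.736). Of the ribonucleotide reductase genes, RRM1 differed by -0.16 and -0.053 and RRM2 by 0.27 and 0.15, and none passed. RRM2 in MHH-CALL4 had an adjusted p of 0.0824, and passed after median centring (0.0426), after cyclic loess (0.0112), within the better expressed genes (0.0476) and without MHH-CALL4 DMSO replicate 1 (0.0323).

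On each array the mean of the 5 MCM genes was 11.44, 11.36 and 11.36 under DMSO and 11.06, 10.91 and 10.90 under JQ1 in MHH-CALL4. In MUTZ-5 it was 11.74, 11.66 and 11.89, and then 11.62, 11.57 and 11.51. The JQ1 means lay below the DMSO means in each line. The mean of all 34 members was 10.77, 10.82 and 10.75 under DMSO and 10.66, 10.60 and 10.57 under JQ1 in MHH-CALL4, with no overlap. In MUTZ-5 it was 10.95, 10.88 and 11.08, and then 11.01, 10.97 and 10.93, with the JQ1 arrays inside the range of the DMSO arrays. MUTZ-5 DMSO replicate 3 had the highest mean of the 12, the array without which the members' median in MUTZ-5 turned positive.

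**Figure D4:**
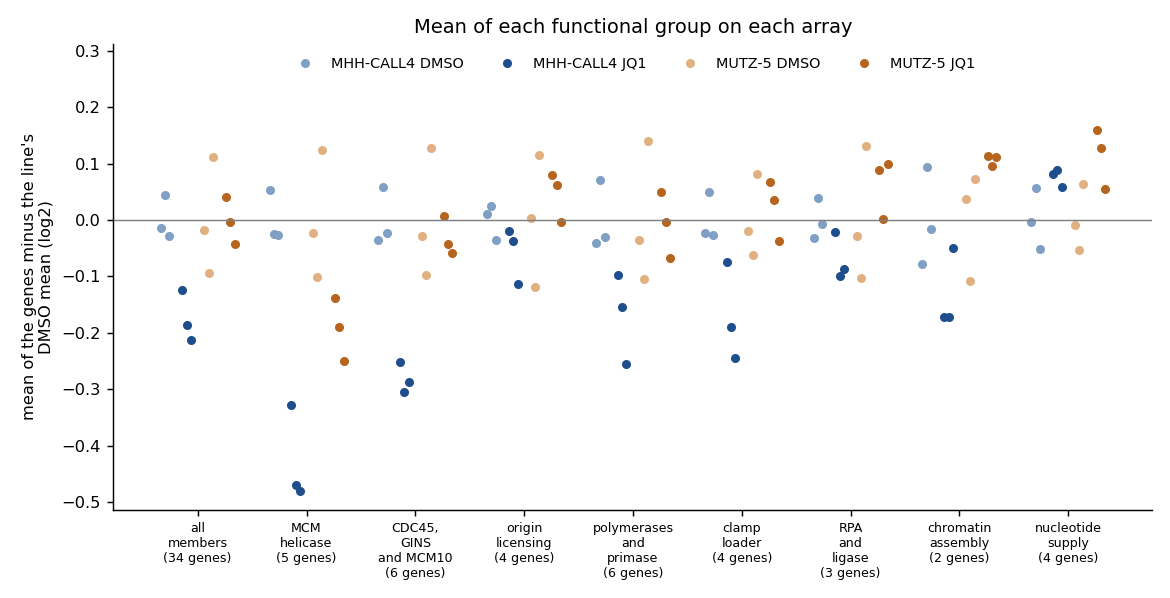
Mean of the genes of each role on each array, as the log2 difference from the mean of the line's 3 DMSO arrays (vertical axis), with 1 point per array and no error bars. The MCM points under JQ1 lie below the DMSO points in both lines, whereas the points of all 34 members separate in MHH-CALL4 and overlap in MUTZ-5.

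Whether a member responded differently in the lines was tested as the difference of the JQ1 effects, MUTZ-5 minus MHH-CALL4. None of the 34 members passed, against 1.53% of all genes (0.949% with a higher and 0.583% with a lower effect in MUTZ-5). At an unadjusted p under 0.05 there were 9 of 34 (26.5%), against 10.5% of all genes: MCM2, MCM5, GINS4, POLE, RFC3, RFC5, LIG1, CHAF1B and TYMS. So the 8 members called in MHH-CALL4 and not in MUTZ-5 are not shown to differ between the lines. The difference was positive, that is, less negative or more positive in MUTZ-5, for 31 of 34 members (91.2%), against 54.4% of all genes and 66.8% of the better expressed genes. Its median over the members was 0.17. The 3 exceptions were RPA2 (-0.0059), RRM2 (-0.12) and TK1 (-0.12).

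For single members the differences were 0.32 for MCM5 (95% interval 0.12 to 0.52, limma adjusted p = 0.142), 0.28 for TYMS (0.084 to 0.47, adjusted p = 0.201) and 0.57 for GINS4 (0.22 to 0.91, adjusted p = 0.123). With eBayes in its trend and robust settings MCM5 (adjusted p = 0.0452) and TYMS (0.0408) passed, and without MUTZ-5 DMSO replicate 3 GINS4 passed (0.70, adjusted p = 0.0121). Over all alternatives the adjusted p ran from 0.0452 to 0.323 for MCM5, from 0.0408 to 0.445 for TYMS and from 0.0121 to 0.288 for GINS4. The direction of all 3 was the same in each of them. Across the 34 members the effects in the lines, which share no array, had a Pearson correlation of 0.85 (Spearman 0.85), against 0.77 (Spearman 0.69) across all 14232 genes. These correlations are descriptions across genes, which are not independent.

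The starting levels differed between the lines. Under DMSO 16 of 34 members were higher in MUTZ-5 and 1, RRM2, was higher in MHH-CALL4, while 17 did not pass (50% of the members called, against 23.4% of all genes, 11.9% higher and 11.5% lower in MUTZ-5). The median difference of the members was 0.23, against 0.028 for all genes. MCM6 was 11.04, 10.93 and 10.90 in MHH-CALL4, whereas MUTZ-5 had 11.48, 11.45 and 11.77 (1.53-fold, SE 0.12 log2, limma adjusted p = 0.00225). GINS2 was 11.92, 12.04 and 11.96 and then 12.58, 12.52 and 12.64 (1.52-fold, SE 0.067, adjusted p = 1.05e-05). CDT1 was 9.89, 9.95 and 9.95 and then 10.56, 10.34 and 10.53 (1.46-fold, SE 0.080, adjusted p = 0.000162). These values did not overlap between the lines, as for 21 members in all and for 36.2% of all genes. RRM2, the regulated subunit of ribonucleotide reductase, ran the other way, with 11.98, 11.71 and 11.67 in MHH-CALL4, whereas MUTZ-5 had 11.09, 10.92 and 11.18 (-0.72, SE 0.11, adjusted p = 0.000216).

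By role, 3 of 5 MCM genes, 3 of the 6 CDC45, GINS and MCM10 genes, 2 of 4 licensing genes, 4 of 6 polymerase and primase genes, 1 of 4 clamp loader genes and both CHAF1 genes were higher in MUTZ-5, with TK1. RPA1, RPA2 and LIG1 did not pass. The 4 licensing members, in which JQ1 made no called change, thus included CDT1 and ORC1 (0.50, limma adjusted p = 0.00371) among those that differed at the start. Of the 16, POLA2 lost its call in 11 of 20 alternatives, CHAF1A in 7, MCM10 in 5 and CHAF1B in 4, with adjusted p up to 0.133, 0.135, 0.0795 and 0.0844. All 4 were lost without MHH-CALL4 DMSO replicate 1 or 3 or MUTZ-5 DMSO replicate 1, and all but CHAF1B without MUTZ-5 DMSO replicate 3. Of the better expressed genes 36.5% differed between the lines, with 20 of the 34 members. Without MUTZ-5 DMSO replicate 3, GINS4 (-0.30) and RPA2 (-0.24) were also called lower in MUTZ-5. The DMSO arrays of this comparison are also those of the JQ1 comparisons, so the sets of values are not independent.

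**Figure D5:**
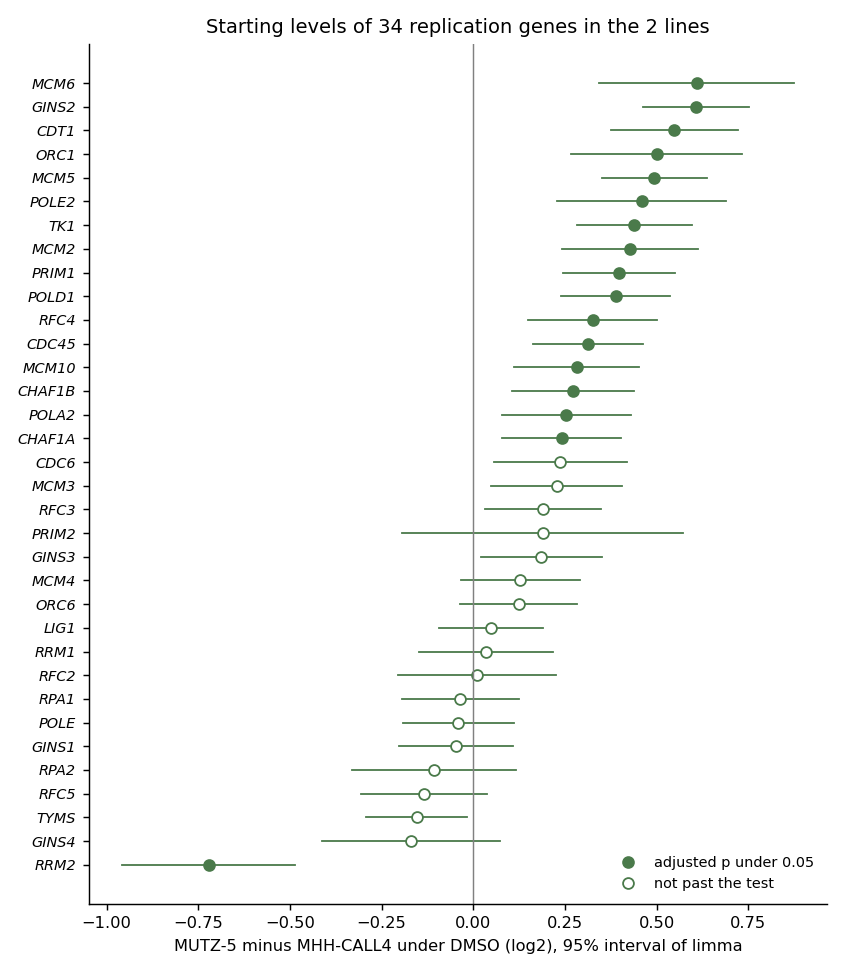
MUTZ-5 minus MHH-CALL4 under DMSO on the log2 scale (horizontal axis) for the 34 members in order of the difference, with lines for the 95% interval of limma and filled points where the adjusted p was under 0.05. The 16 filled points on the right run from CHAF1A at 0.24 to MCM6 at 0.61, and the only filled point on the left is RRM2 at -0.72.

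Further genes of the pathway were counted in the same way. Of 45 measured replication genes outside the 34, 16 fell, 2 rose and 27 did not pass in MHH-CALL4 (40.0% called, against 28.5% of all genes and 46.9% of the better expressed genes), with a median of -0.11. In MUTZ-5 7 fell, 3 rose and 35 did not pass, with a median of -0.021, and the 22.2% called were near the 22.0% of all genes. Under DMSO 11 of the 45 were higher (24.4%) and 6 lower (13.3%) in MUTZ-5, against 11.9% and 11.5% of all genes. In MHH-CALL4 the largest falls were those of DCTD (-0.85), a deaminase that feeds thymidylate synthesis, UHRF1 (-0.77), which maintains DNA methylation behind the fork, RNASEH2B (-0.66), a subunit of ribonuclease H2, and MTBP (-0.59), an origin firing factor, whose call was lost in 11 of 20 alternatives, in which the adjusted p reached 0.164. RRM2B, the p53-responsive ribonucleotide reductase subunit, rose by 0.34 and POLD4, a small polymerase delta subunit, by 0.25 (lost in 6, adjusted p up to 0.115). In MUTZ-5 DCTD (-0.67), POLD2 (-0.58), RNASEH2B (-0.51) and TK2 (-0.48) fell most, and CLSPN (0.77), a checkpoint adaptor at the fork, ASF1B (0.33) and CHTF18 (0.27, lost in 3) rose. The other nucleotide supply genes fell in 5 of 7 cases in MHH-CALL4 and in 3 of 7 in MUTZ-5.

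Of 27 measured regulators of S phase entry 9 fell and 2 rose in MHH-CALL4, and 7 fell and 2 rose in MUTZ-5. For this list and those that follow, 17.5% of all genes fell and 11.0% rose in MHH-CALL4, and 13.0% fell and 9.06% rose in MUTZ-5. When only the better expressed genes were tested, 31.8% of them fell and 15.1% rose in MHH-CALL4. In MUTZ-5 24.7% of them fell and 18.2% rose. The S phase regulators that fell were 33.3% of their list in MHH-CALL4 and 25.9% in MUTZ-5, counted in the test over all genes. CCND2, a G1 cyclin, fell by 1.40 and 1.22, E2F5 by 0.89 and 0.82, and CDK6, a G1 kinase, by 0.73 and 0.47. CDK2, the kinase of S phase, rose by 0.28 and 0.32. E2F1, an activator of replication genes named after its values were seen, fell by 0.33 in MHH-CALL4 (limma adjusted p = 0.00202) and differed by -0.034 in MUTZ-5 (adjusted p = 0.818). E2F2 and E2F3 differed by -0.12 and -0.25 in MHH-CALL4 and by 0.020 and -0.15 in MUTZ-5, and none passed. E2F7 differed by 0.082 in MHH-CALL4 and rose by 0.42 in MUTZ-5 (adjusted p = 0.00199). Of 11 measured E2F, TFDP and RB family genes 5 fell and 0 rose in MHH-CALL4, and 2 fell and 1 rose in MUTZ-5. Of 9 measured genes of the MYC network 3 fell and 3 rose in each line; MXD1, which competes with MYC for MAX, rose by 1.32 and 1.19. The fall of MYC was smaller in MUTZ-5 by 0.73 (adjusted p = 0.00112). Of 22 measured mitosis genes 1 fell and 5 rose in MHH-CALL4, and 2 fell and 5 rose in MUTZ-5. PTTG1, the securin that holds back the separation of sister chromatids, rose by 0.44 and 0.45. FOXM1, a regulator of late cell cycle genes, fell by 0.47 and 0.28, the latter lost in 5 of 20 alternatives (limma adjusted p up to 0.0926). The medians were 0.067 and 0.093 for mitosis genes and -0.14 and -0.034 for S phase regulators. Whether the share of cells in each phase changed was not measured.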

How the data were processed

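Total RNA of 12 samples was hybridised to Affymetrix exon arrays. Per the labels, the authors ran RMA at the gene level in Affymetrix Expression Console and deposited log2 values in 24 columns, a core and an extended summary of each array, which were counted as 1 replicate. The program version, the arrays normalized together and the genome build behind the array's annotation are not given in the sources used here, and no detection calls were used, so a low value may be background. Precision is limited by how few arrays there are. Of 22011 core rows, 14432 had a single symbol in the platform annotation. The row with the highest mean was kept where a gene had several (197 genes), which left 14232 genes; 2408 rows with several symbols were left out. Each member had 1 row. No filter or further normalization was applied.

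limma 3.58.1 in R 4.3.3 was fitted with 1 mean per group over all 12 core arrays (lmFit, contrasts, eBayes; two-sided, Benjamini-Hochberg over 14232 genes, threshold 0.05), after being tested on simulated data. Alternatives were extended summaries, median centring, cyclic loess, genes whose highest group mean reached the median only, a replicate block, trend and robust eBayes, only the groups compared, the mean of a gene's rows, and each array left out. Values on each array were given in full for the 8 called members with the largest JQ1 effect in each line, any called for the line difference, and the 4 with the largest difference under DMSO. RFC5, E2F1, E2F2, E2F3, ORC2, ORC3, ORC4 and ORC5 were added after their values were seen. Of other lists up to 4 called genes per direction and line could be named, and MYC. Members and lists were chosen with earlier results of these data known.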

Additional observations from a re-analysis of the deposited data

Results flagged for a closer look

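RFC5, a clamp loader subunit, was lower on all 3 JQ1 arrays than on all 3 DMSO arrays in MHH-CALL4 and higher on all 3 in MUTZ-5. The gap in MHH-CALL4 was narrow, from 10.79 on the highest JQ1 array to 10.81 on the lowest DMSO array. The difference there was -0.10 (95% interval -0.27 to 0.071). Such groups without overlap were found for 43.7% of all genes in MHH-CALL4 and 32.6% in MUTZ-5. The difference between the JQ1 effects was 0.30 log2 (95% interval 0.055 to 0.54) and did not pass over all genes (limma adjusted p = 0.323; 0.115 to 0.614 over the alternatives).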

How the results depend on the processing

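Apart from E2F1 and ORC2, which were not followed through the alternatives, no named gene that passed changed direction in any of them. The members' median in MUTZ-5 changed sign, from -0.036 to 0.031 without MUTZ-5 DMSO replicate 3. It was also positive after median centring, with 20 of 34 members positive, against 16 in the main fit. Of the members called, 7 of 14 kept the call in all 20 alternatives in MHH-CALL4 (GINS1, GINS3, MCM2, MCM5, POLE2, TK1, TYMS), 6 of 9 in MUTZ-5 (GINS1, MCM2, MCM5, POLE, POLE2, TK1) and 13 of 17 under DMSO. In MHH-CALL4 the members' median was -0.082 after cyclic loess, and 2 members rose after cyclic loess, after median centring and within the better expressed genes, with RRM2 added. In MUTZ-5 7 rose after median centring, with ORC6, RFC5 and LIG1 added. For the line difference 2 members (MCM5, TYMS) passed with trend and robust eBayes. Under DMSO 2 were lower in MUTZ-5 with median centring or with trend and robust eBayes, with TYMS added.

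With each array left out, the members' median ran from -0.20 to -0.14 in MHH-CALL4, -0.056 to 0.031 in MUTZ-5, 0.12 to 0.23 for the line difference and 0.17 to 0.28 under DMSO. Higher calls ran from 1 to 2, 2 to 5 and, under DMSO, 12 to 18. Lower calls ran from 6 to 13, 4 to 5 and 1 to 3. Line-difference calls ran from 0 to 1. The causes were not tested. With the replicate number as a block 1 member was higher and 11 lower in MHH-CALL4, 4 and 5 in MUTZ-5, 0 passed for the line difference, and 14 were higher and 1 lower under DMSO. Of 18 correlations between deviations of same-numbered arrays, from -0.62 to 0.47, 6 were over 0.1. The JQ1 groups of the lines, which no test compared directly, had all 3 over 0.1. Between arrays of different groups and different numbers the correlations ran from -0.34 to 0.48. Of the 12 arrays, 0 correlated best with the same-numbered array in every other group. The labels name no shared batch, so the numbers were not taken as pairs. No detection calls were used, and 3 arrays per group limit the precision.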
